A study of Mus musculus with 6 samples.

Results

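The genes of the leukemia inhibitory factor (LIF), Janus kinase (JAK) and STAT3 pathway were followed in nuclear CAGE libraries of mouse embryonic stem cells (mESCs) and of mouse oligodendrocyte progenitor cells (mOPCs), the latter as a line made from such cells. The members were 10 listed genes among 55450 annotated genes: the ligand Lif, the receptor genes Lifr, Il6st and Cntfr, the kinase genes Jak1, Jak2 and Tyk2, the transcription factor gene Stat3, and the feedback genes Socs3 and Cish. CAGE (cap analysis of gene expression) captures RNAs by their cap and sequences a tag at the point where each one begins, and the deposited values are counts of tags at each position and strand. For each gene, tags within 500 bp of its annotated 5′ ends on its own strand were summed and divided by the total of the library, and scaled to 1000000 tags (CPM). A tag comes from the 5′ end of an RNA whatever its length, so CPM of different genes were set side by side without a length correction, and tags carry no molecular identifiers, so that PCR copies of a tag count separately.

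Each cell type was represented by 3 libraries from a single line. The mESCs were R08, a male line grown without feeders in medium with LIF at 1000 U/ml and 15% serum. The mOPCs were oli-neu, kept proliferating in DMEM with N2 supplement, T3 at 340 ng/ml, L-thyroxine at 400 ng/ml, bFGF at 10 ng/ml and PDGF-BB at 1 ng/ml, and no LIF is listed for that medium. The labels give no further treatment for either line, and the medium differed together with the cell type. The sources used here do not say whether the CAGE libraries of a cell type came from separate cultures, so p-values measure the spread between libraries, which may be technical. The name column of the deposited files carries one identifier in the mESC files and another in the mOPC files, whose meaning the sources used here do not give, and whatever it marks cannot be told apart from the cell type. In such bulk RNA, fewer cells with a transcript and less of it per cell cannot be told apart either.

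LIF binds a receptor made of the LIF receptor chain (Lifr) and gp130 (Il6st), the signal-transducing chain shared by the interleukin-6 family of cytokines, while the CNTF receptor chain (Cntfr) joins the same pair for ciliary neurotrophic factor. JAK kinases bound to these chains phosphorylate STAT3, which enters the nucleus and activates its target genes. Among those targets is Socs3, whose product binds gp130 and the JAKs and shuts the signal down, and in cultured mESCs this pathway is known for sustaining self-renewal. In the oligodendrocyte lineage, LIF and ciliary neurotrophic factor are known for promoting survival and maturation.

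Libraries held 16657021 to 40928704 tags, and the single most used position of the genome took 0.508% to 0.667% of the tags in mESC libraries against 5.38% to 5.92% in mOPC libraries. The 6 mESC markers summed to 3193 to 3533 CPM in mESC libraries and to 0.274 to 0.451 CPM in mOPC libraries, in which Pou5f1, Nanog, Zfp42, Dppa5a and Tdgf1 had 0 tags. The 6 progenitor markers summed to 1399 to 1494 CPM in mOPC libraries and to 7.23 to 8.16 CPM in mESC libraries. Among them, Nkx2-2 had 0 tags in mOPCs and 0.103 CPM in mESCs, and Pdgfra had only 8.33 CPM in mOPCs against 5.51 CPM in mESCs. All 4 markers of mature oligodendrocytes were also above 1 CPM in mOPCs (247 to 283 CPM summed, against 2.40 to 3.20 CPM in mESCs). The 3 neuron markers summed to 81.3 to 102 CPM in mOPCs and to 8.47 to 9.13 CPM in mESCs. In mOPCs only Syt1 was above 1 CPM (88.3 CPM), while in mESCs all 3 were. Rbfox3 and Tubb3 were higher in mESCs (3.01 and 2.24 CPM) than in mOPCs (0 tags and 0.698 CPM). Primitive endoderm markers (3 of 3 above 1 CPM) summed to 21.4 to 25.6 CPM in mESCs and to at most 0.0347 CPM in mOPCs. Astrocyte markers summed to 7.86 to 10.6 CPM in mESCs and to 0.806 to 1.14 CPM in mOPCs, fibroblast markers to 2.32 to 2.40 and to 9.67 to 12.3 CPM, and microglia and macrophage markers to below 0.139 CPM in every library. The astrocyte sum in mESCs came mostly from Aldh1l1 (8.48 CPM, against 0.0231 CPM in mOPCs). Gfap was higher in mOPCs (0.992 against 0.516 CPM). Among fibroblast markers only Col1a1 was above 1 CPM, at 2.20 CPM in mESCs and 11.1 CPM in mOPCs. The part of these other cell types in the values below was not tested.

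Between the cell types, the ligand, both well detected receptor genes and the feedback genes were higher in mESCs, and the kinase genes and Stat3 were higher in mOPCs. Socs3, Lifr, Il6st, Lif and Cish were higher in mESCs, by 3.09-fold (Il6st) to 10.2-fold (Socs3). Jak2, Tyk2, Jak1 and Stat3 were higher in mOPCs, by 1.95-fold (Stat3) to 7.22-fold (Jak2). Cntfr was barely detected in either cell type. In the edgeR quasi-likelihood fit across 18490 genes, 9 members had enough tags to be tested and 9 had a Benjamini-Hochberg adjusted p under 0.05, where 91% of all genes tested did. Of these, 4 were higher in mOPCs (42.1% of all genes) and 5 were higher in mESCs (48.9%), 8 differed at least 2-fold (67%), and the 3 libraries of one cell type lay entirely above those of the other for 9 (91.2%). The median absolute log2 fold change was 1.83 for the 9 members and 1.71 for all genes, so the members as a group moved about as far as other genes between these lines.

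**Figure D1:**
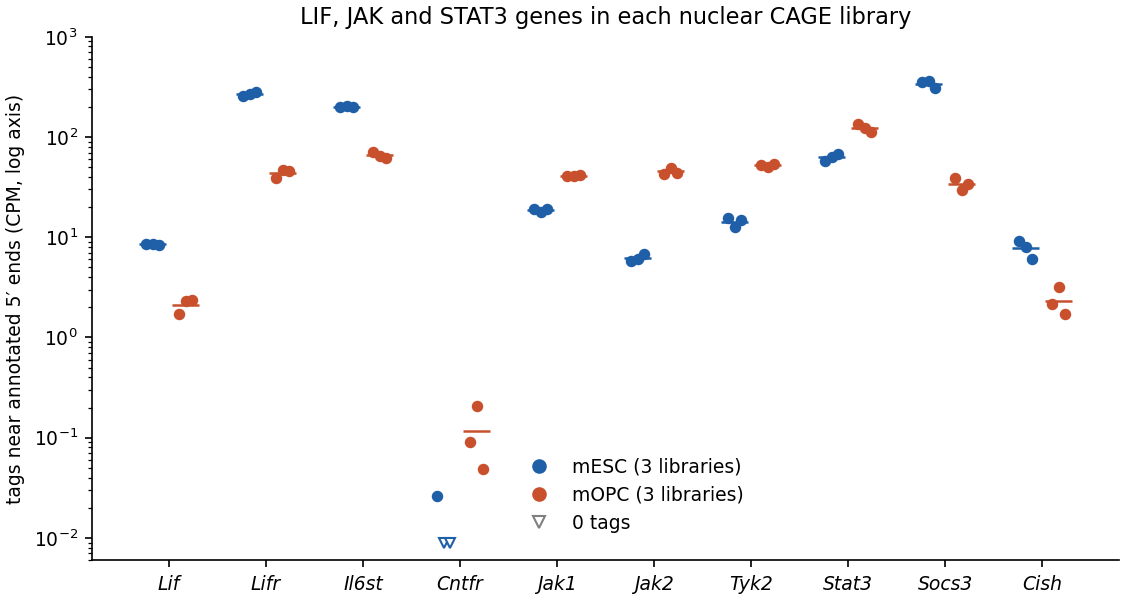
Tags near annotated 5′ ends of the 10 genes in each library, in CPM on a log axis, with mESC libraries in blue, mOPC libraries in orange, a line at each mean of 3 libraries and open triangles for libraries with 0 tags (no mean is drawn there). The 3 mESC points lie above the 3 mOPC points for Lif, Lifr, Il6st, Socs3 and Cish and below them for Jak1, Jak2, Tyk2 and Stat3.

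Lif (ENSMUSG00000034394.14, mm10 chr11:4257557-4272514, + strand), which encodes the ligand itself, was transcribed at a low level. Its level was 8.58, 8.46 and 8.41 CPM in the mESC libraries and 1.73, 2.29 and 2.35 CPM in the mOPC libraries. All mESC libraries were higher, with a log2 fold change of mOPCs over mESCs of -2.0 ± 0.16 (SE, adjusted p = 9.5e-18).

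Lifr (ENSMUSG00000054263.12, chr15:7090614-7197489, + strand), the chain that binds LIF, was the more strongly changed of the receptor genes that could be tested at this filter. Lifr measured 255, 269 and 281 CPM in mESCs and 39.0, 47.0 and 46.3 CPM in mOPCs, and the cell types did not overlap. The log2 fold change was -2.62 ± 0.09 (adjusted p = 3.1e-34), and 21.8% of all genes tested moved as far or farther in that direction. Il6st (ENSMUSG00000021756.12, chr13:112464070-112510086, + strand), the gp130 gene, measured 201, 202 and 200 CPM in mESCs and 71.2, 65.2 and 62.1 CPM in mOPCs. It too was lower in every mOPC library, with a log2 fold change of -1.63 ± 0.08 (adjusted p = 1.8e-25). Within each library, the ratio of Lifr to Il6st was 1.27, 1.33 and 1.40 in mESCs and 0.548, 0.721 and 0.745 in mOPCs, a difference of -1.0 on the log2 scale. Lifr thus exceeded Il6st in all mESC libraries and lay under it in all mOPC libraries (two-sided exact permutation p = 0.1, the smallest that 3 against 3 libraries can give, also 0.1 after adjustment over the 3 ratios compared). Cntfr (ENSMUSG00000028444.17, chr4:41657498-41697089, - strand) had 1, 0 and 0 tags in mESCs and 2, 6 and 2 tags in mOPCs, too few to pass the filter on low counts. Its pooled rate was 7.96 times higher in mOPCs, with a 95% exact interval of 1.13 to 345 that covers counting error only. Pooled over libraries, 1 mESC tag and 9 mOPC tags lay in the start region chr4:41663534-41664534, which holds no annotated coding transcript start. Of the Cntfr regions with such starts, chr4:41696540-41697589 held 0 tags in mESCs and 1 in mOPCs, and chr4:41694942-41696435 held 0 in both. The ratio thus describes mainly the region without a coding start. Without the filter, edgeR gave a log2 fold change of 2.74 ± 1.23 (adjusted p = 0.041) and DESeq2 one of 2.85 ± 1.83 (adjusted p = 0.15), so the call depended on the tool.

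The sequences around the most used start of both expressed receptor genes are shown because no other position held more of their tags in any library. They are RefSeq sequence of GRCm38.p6, written 5′ to 3′ on the gene's strand, chr15:7129516-7129576 for Lifr and chr13:112464040-112464100 for Il6st. Capitals mark the deposited position with the most tags, after 50 bases of upstream sequence, and the base after it.
Lifr: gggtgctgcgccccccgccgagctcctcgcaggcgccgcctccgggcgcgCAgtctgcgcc
Il6st: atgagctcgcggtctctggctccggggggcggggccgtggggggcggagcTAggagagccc
Both had a pyrimidine at the deposited position and a purine after it, and transcription in mammals usually begins at such a purine. Over 3925 to 6369 RefSeq promoter windows per library with a position of at least 100 tags, the most used deposited position was C or T in 92.6% to 93.2% and the next base was A or G in 94.5% to 96.5%. Both held together in 87.9% to 89.6% of these windows, in which the deposited position lay 1 base upstream of a purine.

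All 3 kinase genes were higher in mOPCs. Jak1 (ENSMUSG00000028530.14, chr4:101152367-101265282, - strand), the kinase through which gp130 chiefly signals, measured 18.9, 18.0 and 19.3 CPM in mESCs and 40.5, 40.8 and 41.7 CPM in mOPCs. The libraries of a cell type were close together and the cell types did not overlap, with a log2 fold change of 1.10 ± 0.09 (adjusted p = 2.9e-16). Jak2 (ENSMUSG00000024789.13, chr19:29251828-29313080, + strand), which also serves the receptors of growth hormone and erythropoietin, measured 5.81, 6.06 and 6.73 CPM in mESCs and 42.9, 49.3 and 43.7 CPM in mOPCs. The cell types lay far apart in every library, and the log2 fold change was 2.85 ± 0.11 (adjusted p = 1.4e-31, with 13.1% of all genes as far or farther in that direction). Tyk2 (ENSMUSG00000032175.11, chr9:21104068-21131243, - strand), a kinase best known from interferon and interleukin-12 receptors, measured 15.4, 12.5 and 14.9 CPM in mESCs and 52.3, 50.0 and 54.0 CPM in mOPCs. Its groups did not overlap and its log2 fold change was 1.83 ± 0.10 (adjusted p = 1.1e-24).

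The balance between the kinases also differed. Jak1 exceeded Jak2 by 3.26, 2.96 and 2.87 times in the mESC libraries, while the ratio was 0.946, 0.827 and 0.955 in the mOPC libraries. The groups did not overlap, and the difference was -1.74 on the log2 scale (two-sided exact permutation p = 0.1, the smallest possible). The starts of both genes are shown for comparison, from chr4:101265214-101265274 (- strand) for Jak1 and chr19:29251722-29251782 (+ strand) for Jak2, with capitals as above.
Jak1: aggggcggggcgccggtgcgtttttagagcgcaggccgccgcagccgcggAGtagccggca
Jak2: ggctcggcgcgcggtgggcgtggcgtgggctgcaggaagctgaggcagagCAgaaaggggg
Jak1 had an A at its most used deposited position, unlike the other starts shown, and the neighbouring position upstream was used almost as often (11.3% against 13.8% of tags in mESCs and 14.2% against 15.1% in mOPCs).

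Stat3 (ENSMUSG00000004040.16, chr11:100885098-100939540, - strand), the transcription factor that the receptor complex activates, was the member with the smallest difference among those tested. It measured 57.2, 62.6 and 68.1 CPM in mESCs and 134, 124 and 113 CPM in mOPCs, without overlap. The log2 fold change was 0.96 ± 0.09 (adjusted p = 2.2e-15), and 30.5% of all genes tested moved as far or farther toward mOPCs. The protein-coding genes with the most similar levels over the 6 libraries were Rbck1, Ube3c and Ncoa1, at Euclidean distances of 0.122, 0.269 and 0.270 on the log2(CPM + 1) scale among 14227 genes compared. For Lifr they were Nadk2, Gng5 and Cox7c, at distances of 0.294, 0.312 and 0.379.

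Socs3 (ENSMUSG00000053113.3, chr11:117966079-117970047, - strand) was the most abundant member in mESCs and had the largest fold change of the members tested. Its level was 354, 364 and 305 CPM in mESCs and 38.6, 29.6 and 33.7 CPM in mOPCs, with a log2 fold change of -3.35 ± 0.10 (adjusted p = 1.5e-32). No library of one cell type came near those of the other, and 18.2% of all genes moved as far or farther toward mESCs. Set against its activator within each library, Socs3 was 6.18, 5.81 and 4.48 times Stat3 in mESCs and 0.289, 0.239 and 0.298 times Stat3 in mOPCs. The ratio therefore turned over between the cell types, by -4.31 on the log2 scale, the largest of the 3 ratios compared (two-sided exact permutation p = 0.1, the smallest possible). Cish (ENSMUSG00000032578.7, chr9:107296026-107302784, + strand), a feedback inhibitor best known as a STAT5 target, measured 9.11, 8.04 and 6.13 CPM in mESCs and 2.14, 3.16 and 1.71 CPM in mOPCs. It followed Socs3 in direction at a much lower level, with a log2 fold change of -1.80 ± 0.19 (adjusted p = 2.7e-10).

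The RefSeq promoter windows of the members, each of 300 bases from 250 before to 50 after an annotated start, were searched for TTCNNNGAA, the palindromic site recognised by STAT dimers, which reads the same on both strands. Windows were found for 10 of 10 members (16 windows), and the motif stood in 2 of these windows, those of Socs3 and Cish. Over all 32851 windows the share was 8.30%, and whether the members exceed it was not tested. The most used position of Lif, Socs3, Stat3 and Tyk2 lay 9189, 133, 71 and 24 bases downstream of their windows. In these members neither that position nor the bases between it and the window were searched. The Lif window lay at its upstream start region, which held 54 pooled mESC tags against 567 in the main region. Cish had 2 copies, as 0.457% of all windows did. The stretches around the motifs are printed with the motif in capitals, from chr11:117969482-117969550 (- strand) for Socs3 and chr9:107296629-107296708 (+ strand) for Cish.
Socs3: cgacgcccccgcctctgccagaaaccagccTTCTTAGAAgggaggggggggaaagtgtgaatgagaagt
Cish: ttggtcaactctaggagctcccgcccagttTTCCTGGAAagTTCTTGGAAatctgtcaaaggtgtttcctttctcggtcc
The Cish copies began 36 and 25 bases upstream of its most used position, and the Socs3 copy began 336 bases upstream of its own. Such a match is a description of the letters in these windows and no measurement of binding.

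Ranked by level, the order in mESCs was Socs3, Lifr, Il6st, Stat3, Jak1 and Tyk2, each with all libraries above those of the next, and then Lif, Cish and Jak2, whose neighbours overlapped. In mOPCs, Stat3 stood first (124 ± 10.2 CPM, SD, n = 3), followed by Il6st, Tyk2, Jak2, Lifr, Jak1, Socs3, Cish and Lif. There, Jak2 overlapped with Lifr and Lifr with Jak1, and Cish with Lif, whereas the other neighbours were separate. Cntfr came last in both. Among all genes tested, Socs3 lay in the top 2.12% by level in mESCs and in the top 33.3% in mOPCs, while Stat3 went from the top 19.5% to the top 6.71%.

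**Figure D2:**
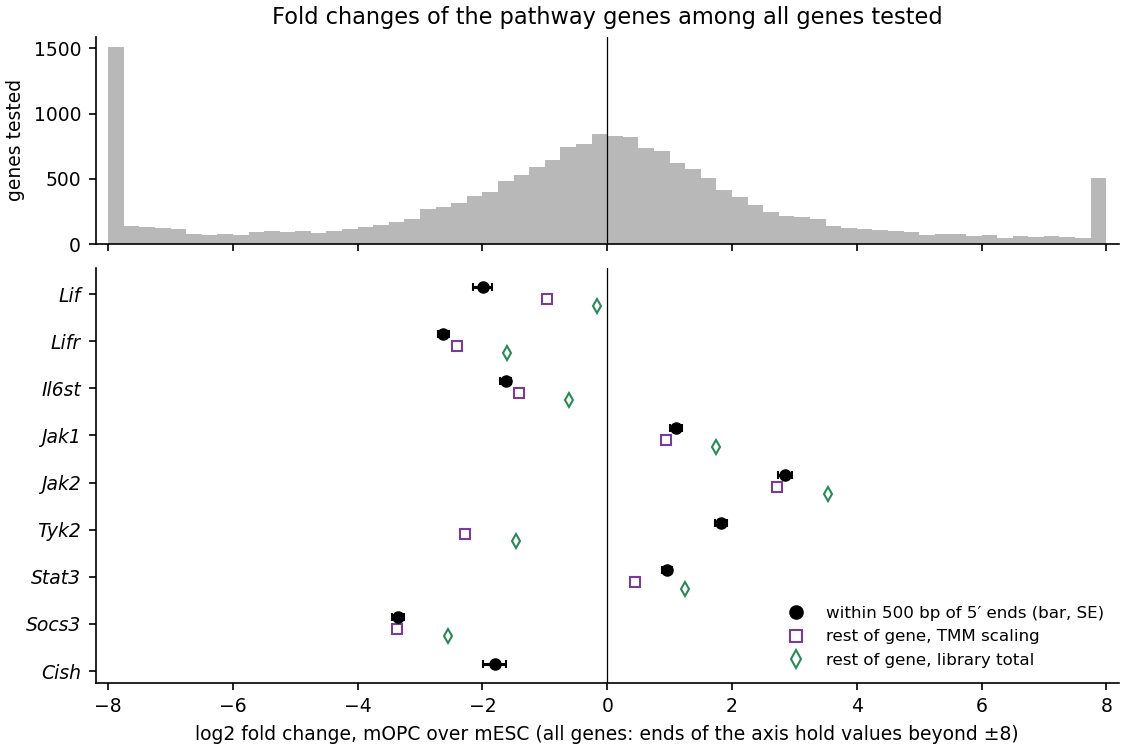
Log2 fold changes of mOPCs over mESCs. The upper histogram counts all 18490 genes tested, with values beyond ±8 in the outermost bars, and the lower panel shows each member tested near 5′ ends (black points with SE) and in the rest of the gene under either scaling (open squares for TMM, open diamonds for library totals). Members lie on both flanks of the histogram's centre, and Tyk2 alone changes side outside the windows.

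The start sites themselves were compared as shares of the tags of the region that held most of a gene's tags, which do not depend on scaling between libraries. Socs3 initiated mainly at chr11:117969184, which took 75.9% ± 0.71 of the tags of its region in mESCs and 60.5% ± 2.82 in mOPCs (SD, n = 3). The position 2 bases upstream took 8.01% ± 0.41 in mESCs and 15.6% ± 1.17 in mOPCs, so this pair of positions was dominant in both. The span holding the central tags, from the 10% to the 90% quantile, was 3 bp in mESCs and 3 to 4 bp in mOPCs. Stat3, Jak2 and Tyk2 were spread more widely, with spans of 67 to 78 bp, 110 to 127 bp and 64 to 97 bp in single libraries. For the comparisons of single positions, two-sided exact permutation tests over 3 against 3 libraries can give no p below 0.1, so no position could pass the threshold. The smallest p was 0.1, or 0.183 after adjustment over the 22 positions compared.

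Lifr initiated at chr15:7129566 in every library, with 29.4% ± 0.88 of the tags of the region in mESCs and 37.2% ± 0.92 in mOPCs. The span of its central tags was 47 bp in all mESC libraries and 15, 12 and 21 bp in the mOPC libraries. The neighbouring position chr15:7129564, 2 bases upstream of the main one, took 15.5% ± 0.86 in mESCs and 27.6% ± 2.47 in mOPCs. A position 23 bases upstream of the main one, singled out after its values were seen, took 8.28% of tags in mESCs and 1.43% in mOPCs, and libraries of the cell types did not overlap there. A distal Lifr start region, chr15:7090114-7091114, held 114, 58 and 52 tags in the mESC libraries and 0 in each mOPC library, at least 93.8-fold higher in mESCs against a floor of 3 pooled tags. This region gave 1.01% to 1.29% of the Lifr tags of an mESC library.

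Stat3 used a different leading position in each cell type. In mESCs, chr11:100939450 led with 13.8% ± 0.92 of tags, against 8.87% ± 0.50 in mOPCs. In mOPCs, chr11:100939420 led with 13.0% ± 0.18, against 11.5% ± 0.47 in mESCs. In Tyk2, chr9:21131241 took 4.92% ± 1.15 in mESCs and 12.6% ± 0.36 in mOPCs. Lif had few tags, 567 in mESCs and 191 in mOPCs pooled over its main region chr11:4266296-4267595, and the upstream annotated start region held 54 and 9 more. Within that main region, position chr11:4266534 had 2, 0 and 0 tags in mESCs and 11, 17 and 16 tags in mOPCs, which was 0.227% ± 0.39 and 24.6% ± 5.96 of the tags. The leading Lif position in all mESC libraries, chr11:4266806, took 11.6% ± 1.08 there and 8.74% ± 4.86 in mOPCs. Il6st and Jak1 kept 1 leading position in all libraries and similar spans, 42 to 45 bp and 46 to 54 bp. Across the 7 members with more than one start region in use, the share of the main region could not pass the threshold either (smallest exact permutation p = 0.1, the lowest possible, or 0.35 after adjustment).

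**Figure D3:**
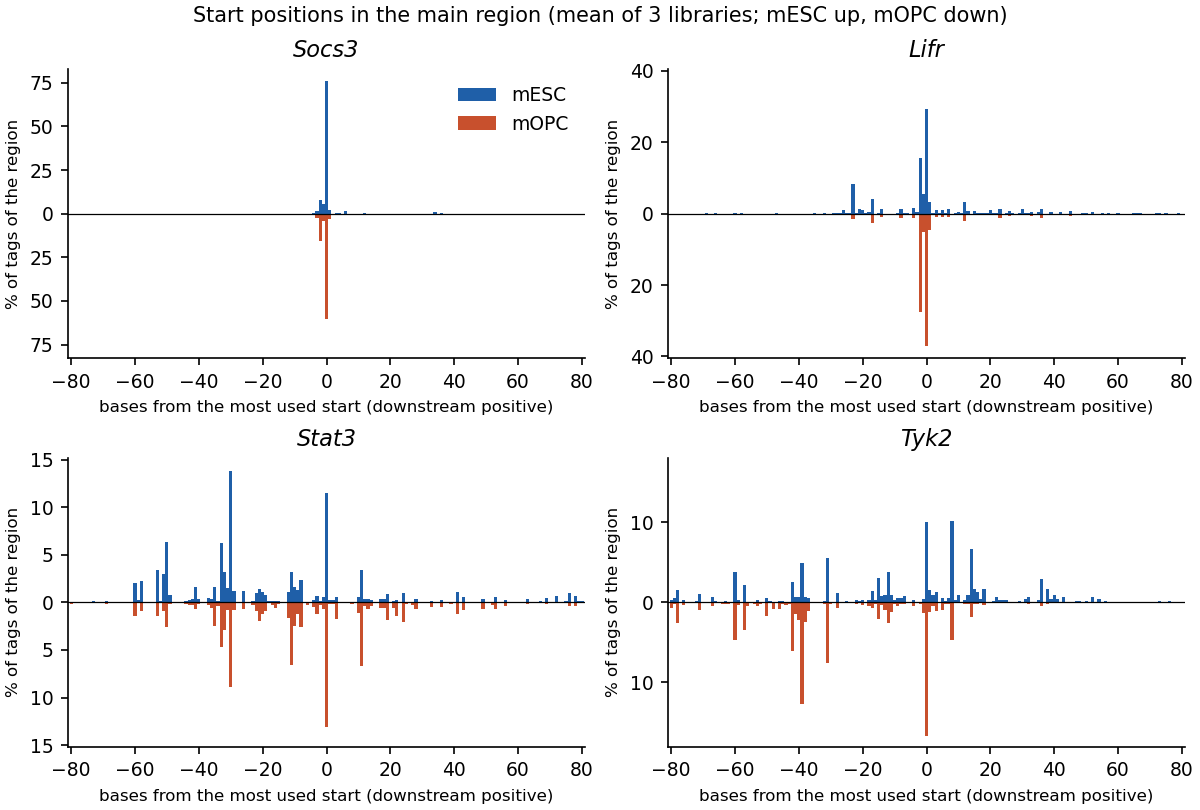
Share of the tags of the main start region at each base, from 80 bases upstream to 80 bases downstream of the position most used over all libraries, as the mean of 3 mESC libraries (blue, upward) and of 3 mOPC libraries (orange, downward). Socs3 shows a single narrow peak in both cell types, Lifr has a lower upstream shoulder in mOPCs, and Stat3 has its highest bar 30 bases upstream of the reference position in mESCs.

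Tags inside the genes but outside the 500 bp windows made up 8.15% to 8.49% of mESC libraries and 15.0% to 15.4% of mOPC libraries over all genes. In the same fit of these tags (edgeR, TMM scaling), 9 members could be tested and 8 were called, where 82% of 14694 genes were. With library totals alone, 8 were called as well, where 85.9% of genes were, and the median log2 fold change of all genes rose from 0.01 to 0.82. The split of calls moved with it, from 50.2% to 67.9% higher in mOPCs. Under either scaling 7 of the 8 members tested in both ways kept the direction seen near their 5′ ends, although Lif passed the threshold under TMM (log2 fold change -0.96, adjusted p = 0.0024) and not with library totals (-0.16, adjusted p = 0.62). Cntfr, removed by the filter near its 5′ ends, was called with library totals (1.11, adjusted p = 3.2e-08) and not under TMM (0.30, adjusted p = 0.12). Its tags there came to 1.72, 1.44 and 1.57 CPM in mESCs and to 2.96, 3.99 and 3.42 CPM in mOPCs.

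Tyk2 was the exception in direction. Outside the windows it measured 8.68, 10.3 and 9.50 CPM in mESCs and 3.33, 3.99 and 2.93 CPM in mOPCs, the reverse of its order near the 5′ ends. Most of the mESC tags lay in a cluster at chr9:21121585-21121693, in a coding exon (chr9:21121392-21121758), with 263, 146 and 146 tags in mESCs and 0, 0 and 3 in mOPCs. Without that cluster, which was picked from these same tags, the remaining tags came to 1.61 CPM in mESCs and 3.39 CPM in mOPCs. These CPM use library totals, and over all genes tags outside the windows took 8.15% to 8.49% of mESC libraries. In mOPC libraries they took 15.0% to 15.4%. The remainder was not fitted under either scaling, so whether it follows the order near the 5′ ends was not tested.

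The other genes of the pathway were described from lists, by counts and medians beside the values over all genes tested, which were a median log2 fold change of -0.19, 42.1% higher in mOPCs and 48.9% higher in mESCs. Of 11 genes for related ligands and receptors, 6 were tested, 1 was higher in mOPCs and 5 in mESCs, with a median of -5.77, or -4.34 with the genes that had 0 tags in mOPCs set at their bound. The other 5 (Cntf, Ctf2, Clcf1, Il6 and Il11) had mean levels of at most 0.451 CPM in either cell type. Il6ra, the interleukin-6 receptor chain that pairs with gp130, rose from 0.905 ± 0.068 CPM in mESCs to 21.7 ± 1.46 CPM in mOPCs (SD, n = 3, log2 fold change 4.55 ± 0.16, adjusted p = 7.2e-33). In the other direction, Il11ra1, the interleukin-11 receptor, measured 6.28 ± 0.17 CPM in mESCs and 0.334 ± 0.10 CPM in mOPCs. Il27ra, which pairs with gp130 for interleukin-27, measured 6.01 ± 1.19 CPM in mESCs and had 0 tags in mOPCs, at least 179-fold higher in mESCs (floor of 3 pooled tags). The cardiotrophin gene Ctf1 measured 6.07 ± 0.72 and 2.77 ± 0.35 CPM. Receptor chains that share gp130 with LIF thus differed in both directions, Il6ra being higher in mOPCs and Lifr, Il11ra1 and Il27ra in mESCs.

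All 6 further JAK and STAT genes described here were called, 2 higher in mOPCs and 4 in mESCs (median -5.48), where 91% of all genes were called. Stat5b, which responds to growth hormone, was 7.73 ± 1.00 CPM in mESCs and 62.8 ± 2.11 CPM in mOPCs, a log2 fold change of 2.98 ± 0.10 (adjusted p = 2.1e-33). Stat2, which acts in interferon signalling, was 32.1 ± 1.58 and 52.5 ± 4.97 CPM. Stat4, an effector of interleukin-12, reached 42.2 ± 2.07 CPM in mESCs with 0 tags in mOPCs (at least 1298-fold higher in mESCs), and Jak3, the kinase of the common gamma chain receptors, reached 18.5 ± 1.41 CPM with 0 tags in mOPCs (at least 575-fold). Stat6, an effector of interleukin-4, was 7.37 ± 0.42 CPM in mESCs and 0.0467 ± 0.046 CPM in mOPCs.

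The 13 inhibitors were all tested, with 5 higher in mOPCs, 7 higher in mESCs and 1 not called (Pias2, 159 ± 7.53 and 162 ± 10.96 CPM), and a median of -0.58. These counts were close to the shares over all genes (42.1% higher in mOPCs and 48.9% in mESCs). Socs2, a feedback inhibitor of growth hormone signalling, was 184 ± 11.8 CPM in mESCs and 13.4 ± 0.77 CPM in mOPCs (log2 fold change -3.81 ± 0.10, adjusted p = 1.7e-40), a direction shared with Socs3 and Cish. Ptpn6, the phosphatase SHP-1, was 25.1 ± 2.22 and 2.98 ± 0.38 CPM, and Socs4 was 75.4 ± 5.50 and 28.2 ± 2.15 CPM. Socs5 and Socs7 went the other way, from 11.7 ± 1.16 to 56.9 ± 1.19 CPM and from 10.9 ± 0.26 to 27.5 ± 1.19 CPM, and Pias3, an inhibitor of STAT3 by name, from 49.0 ± 4.17 to 91.1 ± 3.55 CPM. Of the 6 adaptors that link the receptors to MAP kinase and PI3 kinase, 3 were higher in mOPCs, 1 was higher in mESCs and 2 (Ptpn11 and Sos1) were not called, with a median of 0.69. Gab1, a docking protein, rose from 16.3 ± 2.11 to 125 ± 3.97 CPM, Pik3r1, the regulatory subunit of PI3 kinase, from 37.1 ± 3.64 to 200.1 ± 8.35 CPM, and Grb2 from 17.0 ± 2.54 to 46.0 ± 3.23 CPM. Shc1 was lower in mOPCs by a log2 fold change of -0.22 ± 0.09 (adjusted p = 0.016).

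Among 15 genes known to respond to STAT3, 5 were higher in mOPCs, 9 in mESCs and 1 was not called (Pim3, 245 ± 32.8 and 259 ± 6.26 CPM), with a median of -1.89, beside the same 91% called over all genes. Tfcp2l1, a pluripotency factor downstream of LIF, measured 477 ± 29.5 CPM in mESCs and had 3 pooled tags in mOPCs, a ratio of 14873 with a 95% exact interval of 5089 to 72123. Gbx2, another factor of that kind, was 39.0 ± 4.20 CPM in mESCs and 0.0394 ± 0.036 CPM in mOPCs. Cebpd, a C/EBP transcription factor, was 7.59 ± 0.37 CPM in mESCs with 1 pooled tag in mOPCs. The genes higher in mOPCs were led by Fos (6.01 ± 0.67 and 126 ± 31.1 CPM), Myc (23.5 ± 1.84 and 364 ± 24.1 CPM, log2 fold change 3.92 ± 0.10, adjusted p = 8.2e-41) and Ccnd1 (19.4 ± 1.74 and 189 ± 14.8 CPM), an immediate early gene, a growth regulator and cyclin D1, all of which also respond to growth factors. The genes higher in mESCs also included Klf4, Klf5, Bcl3, Pim1, Mcl1 and Junb, and those higher in mOPCs Cebpb and Bcl2l1.

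**Figure D4:**
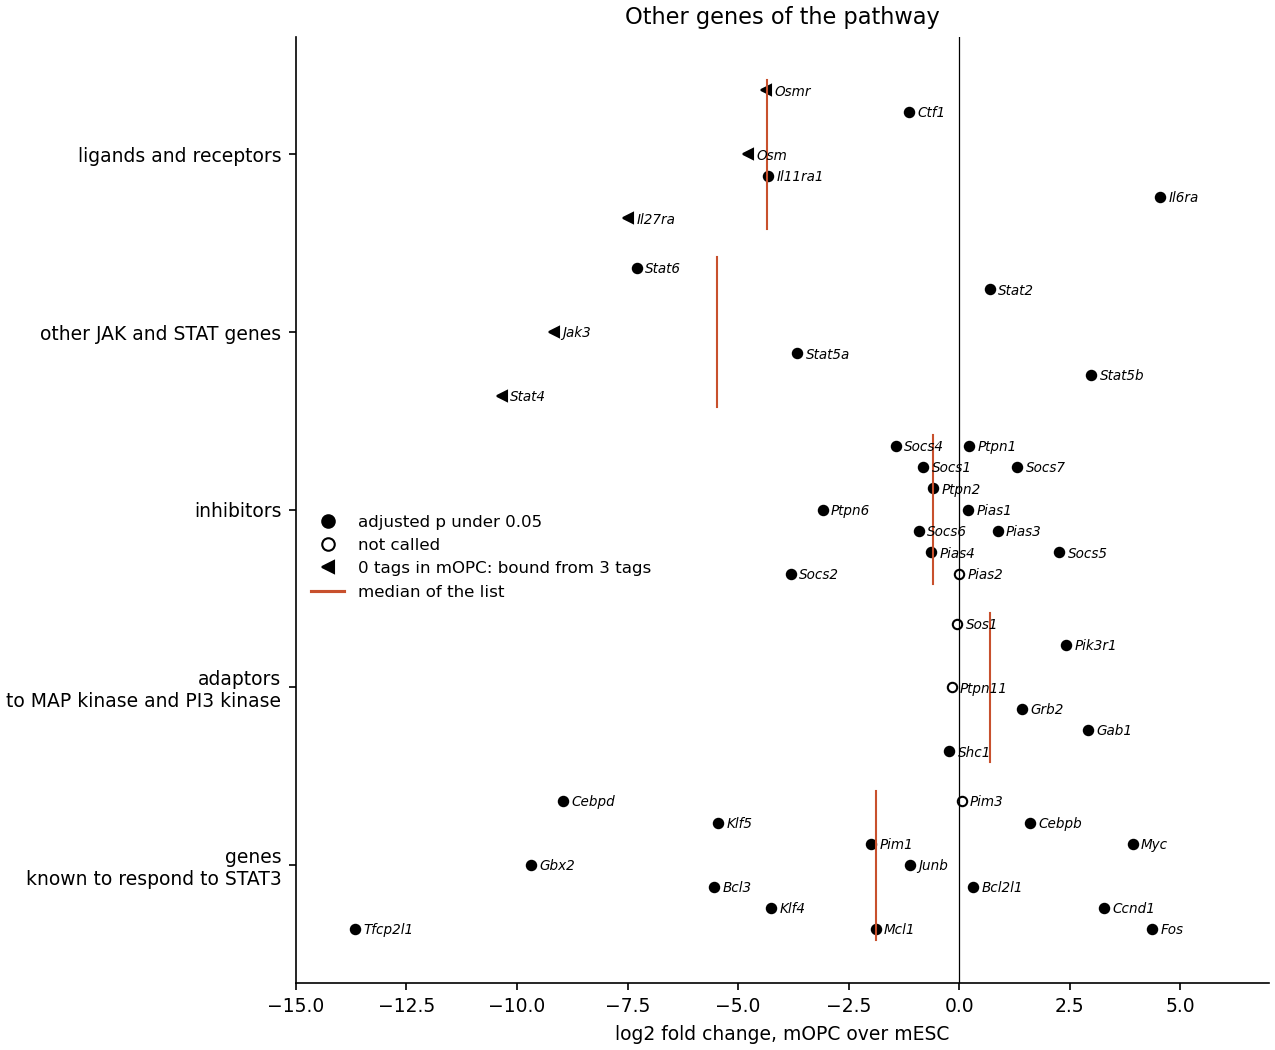
Log2 fold change of mOPCs over mESCs for the tested genes of each list, with filled points for an adjusted p under 0.05, open points for genes not called, triangles for genes with 0 tags in mOPCs drawn at the bound that 3 tags allow, and an orange line at the median of the list. Values on the mESC side reach much farther from 0 than those on the mOPC side in the receptor, STAT and STAT3-responsive lists, while the adaptors lie near 0 or to the right.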

How the data were processed

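Nuclear RNA of 3 mESC and 3 mOPC samples was measured by CAGE. According to the methods, the authors aligned trimmed tags to mm10 and kept unique alignments, with bowtie, whereas the submitters' processing notes list CASAVA 1.8 and BWA 0.5.9. The deposited values are raw counts of tags per position and strand, without normalization. Here, counts within 500 bp of 5′ ends of GENCODE vM21 were summed by gene and strand, and a tag near several genes counted for each. Genes were compared with edgeR 4.0.16 in R 4.3.3 (library size from all tags, TMM, filterByExpr, quasi-likelihood test, Benjamini-Hochberg threshold 0.05), with DESeq2 1.42.0 as an alternative. The edgeR fit was tested on simulated data in which most genes did not change and changes were balanced in direction. In the real data 91% of genes were called, a setting that the simulation did not cover. Totals of 16657021 to 40928704 tags set the precision, and intervals and floors (3 tags) cover counting error only. Members and lists were chosen with earlier results of these data known. Besides the members, up to 3 genes of each list and direction were named, those with the largest log2 fold changes among genes called, without overlap between cell types and with at least 5 CPM in the higher one, and genes listed without values, not called or not tested were named after their values were seen. Some listed genes are not reported here and were left out of the counts of their lists. Genes most like Stat3 and Lifr used log2(CPM + 1). Tags outside the windows were fitted as an alternative added after the window sums were seen. Promoter sequences came from RefSeq (GRCm38.p6).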

Additional observations from a re-analysis of the deposited data

Results flagged for a closer look

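In 5 members, at least 50 tags of one cell type lay together inside the gene but away from annotated 5′ ends, in tags that the comparison near 5′ ends did not use (positions up to 20 bp apart were joined). In Tyk2, the cluster in a coding exon held 555 tags pooled over mESC libraries and 3 over mOPC libraries, a ratio of 232 (95% exact interval 79.1 to 1131). In Jak2, an intronic cluster at chr19:29265659-29265861 held 129 tags in mOPCs and 0 in mESCs, at least 34.2-fold higher in mOPCs. In Stat3, a cluster at chr11:100938124-100938249 held 91 tags in mOPCs and 33 in mESCs. Scaled to library totals, these were 0.958, 0.936 and 1.05 CPM in mOPCs and 0.528, 0.540 and 0.217 CPM in mESCs. The remaining Stat3 tags outside the windows had the same direction (11.4 CPM in mOPCs and 4.71 CPM in mESCs). In Lifr, an intronic cluster at chr15:7115520-7115613 held 82 tags in mESCs and 0 in mOPCs, at least 34.3-fold higher in mESCs. In Cntfr, a cluster at chr4:41658412-41658460 held 51 tags in mESCs and 3 in mOPCs, a ratio of 21.4 (95% exact interval 6.91 to 107), opposite to the remaining tags of the gene (0.901 CPM in mESCs and 3.42 CPM in mOPCs). These tags were counted on the strand of the gene, and their source was not tested.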

How the results depend on the processing

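Over all settings tried, 272 of 281 alternative values kept their direction and their side of the threshold, or stayed within the spread between libraries. These values include the numbers of genes and of listed genes called. Such numbers have no direction, threshold or spread of their own and were all counted as kept. For the log2 fold changes of members, direction and side of the threshold were kept in 157 of 160. The exceptions came from the tags inside genes outside the 500 bp windows, an alternative chosen after seeing the data. There, Tyk2 went to -2.28 with TMM scaling and to -1.47 with library totals, and its coding exon cluster holds most of those mESC tags, while Lif weakened to -0.16 with library totals. Other window widths, tools, scalings, filters, transcript sets, thinning to the smallest library and leaving out any library changed no call of the 9 members tested. Near 5′ ends, genes called ranged from 15083 of 16577 tested (91.0%, windows of 100 bp) to 21147 of 33317 tested (63.5%, no filter on low counts). The other 6 values that moved were shares of a main start region under other windows, such as that of Lif, whose difference went from 4.70 to 22.4 percentage points with windows of 100 bp. Replicate numbers showed no clear pairing of the libraries. Deviations of same-numbered libraries correlated by 0.021, 0.12 and 0.024, and those of differently numbered libraries by -0.15 to 0.11. Correlations this few and weak cannot exclude a pairing by number. With the number as a replicate block, 16833 genes were called against 16832 without it, and no call of these members changed. Cntfr was removed by the filter near its 5′ ends and called without it by edgeR (adjusted p = 0.041), not by DESeq2 (0.15), and with all tags of the gene it was called (log2 fold change 1.14). With 3 libraries against 3 no permutation test could pass 0.05.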
